A study of Sus scrofa with 8 samples.

Results

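Normal peritoneum and native bladder mucosa were compared gene by gene in 4 of the 8 libraries of a porcine study of ileal neobladders lined with the animal's own peritoneum. Both tissues came from Guizhou minipigs aged 8 months and are labelled as normal, so neither side of the comparison was a reconstructed bladder. Each tissue was sequenced as messenger RNA in 2 libraries, and all genes that passed a filter on low counts entered the test. The labels do not say which peritoneal surface was taken, whether the bladder mucosa held its muscle layer, or whether the replicates of a tissue came from separate animals. Every p-value therefore measures only the spread between libraries, which may be technical. That spread was estimated from all 8 libraries of the study.

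Peritoneum is a sheet of mesothelium, a flat lining epithelium of mesodermal origin, over fibrous tissue that holds fat and vessels. Bladder mucosa is a urothelium, a stratified epithelium of endodermal origin, over a connective tissue layer. Urothelium is known for uroplakin plaques, tight junctions and low permeability to urine. Mesothelium is known for a slippery surface and for clearing fibrin. The comparison gives the difference in messenger RNA between the lining used in the study and the native one before any operation.

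The peritoneum libraries held 7.94 and 9.27 M counts and the native bladder libraries 10.68 and 11.03 M. In each library, 18315 to 19867 genes were detected by a count or more. Levels are CPM, the counts of a library brought to a total of 1 M with factors fitted between libraries. They are given in the order replicate 1 and replicate 2, and are not divided by gene length, so that they are compared between libraries and not between genes. The 10 most abundant genes took 14.8% and 16.4% of the counts in peritoneum and 6.53% and 5.87% in native bladder. Replicates correlated across genes at r = 0.940 in peritoneum and 0.972 in native bladder, and libraries of different tissues at 0.747 to 0.772, where genes are not independent replicates. More than 4-fold between replicates lay 410 genes in peritoneum and 57 in native bladder.

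Markers of the labelled tissues that passed the test were on the side their labels name. WT1, a transcription factor that marks mesothelium, had 27.7 and 25.3 CPM in peritoneum and 0 CPM in both native bladder libraries (at least 228-fold higher in peritoneum, adjusted p = 0.000221). RSPO1, a secreted Wnt enhancer of mesothelium, had 29.6 and 59.4 CPM in peritoneum and 0.242 and 0.0747 CPM in native bladder (log2 fold change 8.05 ± 0.75 SE, adjusted p = 9.36e-05). The urothelial uroplakin UPK1A had 0 CPM in both peritoneum libraries and 90.6 and 103 CPM in native bladder (at least 678-fold lower in peritoneum, adjusted p = 0.00043). On Sscrofa11.1, WT1 lies at chromosome 2, 28411467 to 28456007 and UPK1A at chromosome 6, 45105118 to 45113631. A further uroplakin, UPK2, had 1.12 and 0.802 CPM in peritoneum and 987 and 1051 CPM in native bladder (log2 fold change -10.04 ± 0.94 SE, adjusted p = 9.36e-05), and no library of one tissue reached a library of the other for any of these genes. UPK1B, which mesothelium is also known to express, had 309 and 573 CPM in peritoneum and 1931 and 2099.9 CPM in native bladder and did not pass the test (adjusted p = 0.0546). KRT8, a keratin of simple epithelia, overlapped between the tissues at 938 and 2272 CPM in peritoneum and 2256 and 1617 CPM in native bladder (adjusted p = 0.782), and its direction turned when peritoneum replicate 1 was left out (log2 fold change 0.23 in place of -0.27). Of the 8 tested mesothelium markers 6 were higher, and of the 9 urothelium markers 8 were lower, in peritoneum. The mesothelium list, which includes UPK1B, summed to 697 and 1020 CPM in peritoneum and 1975 and 2140 CPM in native bladder. For 2 of its members, UPK1B among them, both peritoneum libraries lay below both native bladder libraries. CALB2, a further mesothelium marker, was not tested because it had too few counts.

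Markers of other cells also differed between the tissues, and in bulk tissue fewer cells of a type and less RNA per cell cannot be told apart. All 7 tested adipocyte markers were higher in peritoneum, with a summed level of 1413 and 905 CPM in peritoneum and 37.1 and 39.2 CPM in native bladder, and the hormone gene ADIPOQ had 618 and 381 CPM in peritoneum and 1.05 and 0.598 CPM in native bladder (log2 fold change 9.23 ± 0.91 SE, adjusted p = 0.000132). The fat cell coat protein PLIN1, with 4.99 and 3.21 CPM in peritoneum and 0 CPM in both native bladder libraries, was among them (at least 35.2-fold higher in peritoneum, adjusted p = 0.0133). PLIN1 missed the threshold without peritoneum replicate 1, bladder replicate 1 or bladder replicate 2 and by DESeq2 (adjusted p 7.97e-05 to 0.204 over the 12 alternatives). The fibroblast list summed to 53244 and 71369 CPM in peritoneum and 14027 and 15515 CPM in native bladder, with 3 of 8 members higher, among them the proteoglycan gene DCN at 8965 and 14188 CPM in peritoneum and 507 and 452 CPM in native bladder (log2 fold change 4.59 ± 0.62 SE, adjusted p = 0.000599). COL1A1 and COL1A2, the chains of the main fibrous collagen, stood at 14032 and 21332 against 4144 and 3747 CPM and 18528 and 20529 against 4650.1 and 4776 CPM and missed the threshold (adjusted p = 0.0523 and 0.0506). Endothelium markers were higher for 6 of 7, with TIE1, a vessel receptor, at 32.7 and 43 CPM in peritoneum and 6.87 and 7.62 CPM in native bladder (log2 fold change 2.38 ± 0.38 SE, adjusted p = 0.0017). Lower in peritoneum were 4 of 8 smooth muscle markers, 4 of 5 T cell markers and 5 of 6 tested B cell markers. ACTG2, a smooth muscle actin, had 1.02 and 6.95 CPM in peritoneum and 685 and 426 CPM in native bladder (log2 fold change -7.11 ± 0.86 SE, adjusted p = 0.000374). JCHAIN, of antibody-secreting cells, had 15 and 10.7 CPM in peritoneum and 1184 and 586 CPM in native bladder (log2 fold change -6.11 ± 0.87 SE, adjusted p = 0.000938). Without peritoneum replicate 1, peritoneum replicate 2, bladder replicate 1 or bladder replicate 2 in turn, 5, 7, 5 and 4 adipocyte, 1, 1, 1 and 1 fibroblast and 2, 4, 2 and 3 endothelium markers were higher. In the same order, 2, 1, 1 and 3 smooth muscle, 2, 3, 1 and 3 T cell and 3, 5, 3 and 4 B cell markers were lower. LGALS4, a lectin shared by gut and urothelium, had 0.815 and 1.96 CPM in peritoneum and 321 and 399 CPM in native bladder (log2 fold change -7.99 ± 0.73 SE, adjusted p = 7.98e-05), while the intestinal identity gene CDX2 had at most 0.204 and 0.0891 CPM in the peritoneum libraries and 0 in native bladder. APOA1, a lipid carrier made by liver and gut, had 742 and 628 CPM in peritoneum and 98.3 and 159 CPM in native bladder (log2 fold change 2.41 ± 0.51 SE, adjusted p = 0.00768). APOA1 missed the threshold without peritoneum replicate 1, bladder replicate 1 or bladder replicate 2 (adjusted p 1.55e-09 to 0.14 over the 12 alternatives). The part of these cells in the family results that follow was not tested.

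Of 16549 tested genes 3486 (21.1%) differed between the tissues by edgeR's quasi-likelihood test at a Benjamini-Hochberg adjusted p under 0.05. Of all tested genes 1644 (9.93%) were higher and 1842 (11.1%) lower in peritoneum. Each called gene differed by more than 2-fold, and the difference passed 16-fold for 466 of the genes higher and 721 of the genes lower in peritoneum. Among the calls, 251 genes had 0 counts in both peritoneum libraries and 128 had 0 counts in both native bladder libraries. Libraries of the tissues did not overlap for 70.0% of all tested genes (34.7% with peritoneum higher and 35.3% with it lower), so that lack of overlap alone says little about a single gene. A call in the marker lists above or in the family results is read against the shares of 9.93% and 11.1%. Counts repeated with 1 library left out are given in the order peritoneum replicate 1, peritoneum replicate 2, native bladder replicate 1, native bladder replicate 2. In that order, 884, 911, 406 and 545 genes were called higher and 990, 1103, 891 and 1038 lower in peritoneum, so the genes called higher were fewest without 1 of the native bladder libraries.

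**Figure D1:**
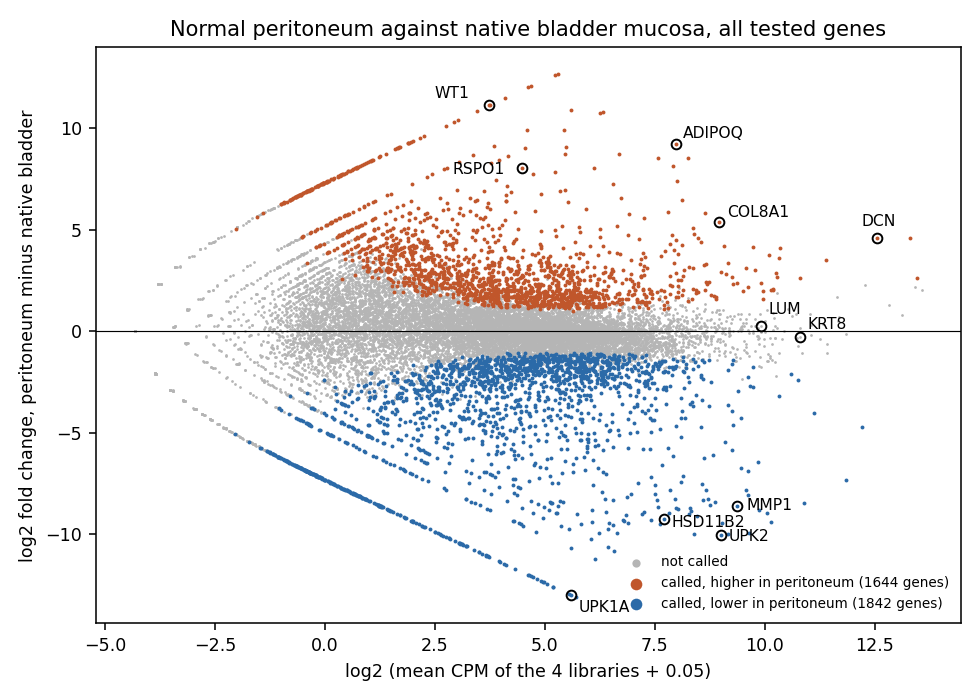
Each point is 1 tested gene, with the log2 of its mean CPM over the 4 libraries on the x axis and its log2 fold change, peritoneum minus native bladder, on the y axis. Coloured points are the 1644 genes called higher and the 1842 called lower in peritoneum. Circled genes are named, with WT1 high and UPK1A at the lower edge, and with KRT8 and LUM near 0.

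The plot of all genes shows the calls on both sides of 0 over the whole range of levels. Its slanted outer lines are genes with 0 counts in both libraries of 1 tissue, for which the fitted fold change depends on the fitting and a bound is given here instead.

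The genes with the largest differences went well beyond the usual markers. In peritoneum they included LVRN, a surface aminopeptidase, with 48.4 and 54.4 CPM in peritoneum and 0 CPM in both native bladder libraries (at least 442-fold higher in peritoneum, adjusted p = 9.36e-05), and FNDC1, a fibronectin-domain protein, with 83.9 and 64.7 CPM in peritoneum and 0 CPM in both native bladder libraries (at least 638-fold higher in peritoneum, adjusted p = 0.000238). FAM180B had 107 and 51 CPM in peritoneum and 0 CPM in both native bladder libraries (at least 677-fold higher in peritoneum, adjusted p = 6.8e-05). For these genes native bladder had no count in either library. LEPR, the leptin receptor, had 28.9 and 39.5 CPM in peritoneum and 0 CPM in both native bladder libraries (at least 294-fold higher in peritoneum, adjusted p = 0.000381). PTPRQ, a receptor-type phosphatase known from the inner ear and kidney, had 66.8 and 127 CPM in peritoneum and 0.0808 and 0 CPM in native bladder, that is 2079 counts against 1 (a ratio of 2546 with a 95% counting interval of 456 to 100611, adjusted p = 0.00012). C1QTNF3, a secreted relative of adiponectin, had 121 and 50.2 CPM in peritoneum and 0.0808 and 0.0747 CPM in native bladder (a ratio of 1073 with a 95% counting interval of 297 to 8870.4, adjusted p = 0.000116). EGFL6, a secreted matrix-binding protein, had 54.8 and 41.1 CPM in peritoneum and 0 and 0.0747 CPM in native bladder (a ratio of 1223 with a 95% counting interval of 219 to 48370.4, adjusted p = 0.000132). The peritoneum libraries agreed within a factor of 3 for each of these genes. TNMD, a membrane protein of tendon and fat, was the exception among the largest differences, with 94 and 4.01 CPM in peritoneum and 0 CPM in both native bladder libraries (at least 421-fold higher in peritoneum, adjusted p = 0.00639). TNMD missed the threshold by DESeq2 (adjusted p 4.85e-29 to 0.0508 over the 12 alternatives).

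Native bladder had genes of similar extremes that are not uroplakins. ADGRF1, an adhesion G protein-coupled receptor, had 0 CPM in both peritoneum libraries and 52.7 and 59.7 CPM in native bladder (at least 394-fold lower in peritoneum, adjusted p = 0.000368). ERN2, the epithelial form of an endoplasmic reticulum stress sensor, had 0 CPM in both peritoneum libraries and 75.4 and 70.5 CPM in native bladder (at least 511-fold lower in peritoneum, adjusted p = 0.000288), and its annotated span overlaps that of PLK1. BICDL2, a motor adaptor, had 0 CPM in both peritoneum libraries and 65.6 and 59.4 CPM in native bladder (at least 438-fold lower in peritoneum, adjusted p = 4.94e-05). For all of these, peritoneum had no count in either library. PROM2, a protein of membrane protrusions, had 0 CPM in both peritoneum libraries and 65.7 and 54.3 CPM in native bladder (at least 421-fold lower in peritoneum, adjusted p = 4.62e-05). DAPL1 had 0 CPM in both peritoneum libraries and 53 and 70.6 CPM in native bladder (at least 433-fold lower in peritoneum, adjusted p = 0.000226). SYT8, of the family of vesicle fusion sensors, had 0 CPM in both peritoneum libraries and 48.3 and 58 CPM in native bladder (at least 373-fold lower in peritoneum, adjusted p = 0.000446). TAT, a tyrosine-degrading enzyme best known from liver, had 0 CPM in both peritoneum libraries and 41.2 and 60.6 CPM in native bladder (at least 357-fold lower in peritoneum, adjusted p = 0.000222). PRSS27, a membrane serine protease, had 0 CPM in both peritoneum libraries and 59.1 and 40.0 CPM in native bladder (at least 347-fold lower in peritoneum, adjusted p = 0.000139). The native bladder replicates lay within a factor of 2 of each other for each gene of this paragraph.

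HOX genes encode transcription factors that keep the head-to-tail address of a tissue, and low-numbered paralogues act nearer the head end and high-numbered ones nearer the tail end. On Sscrofa11.1 the HOXA, HOXB, HOXC and HOXD clusters lie on chromosomes 18, 12, 5 and 15. Of 34 HOX genes in the files 25 were tested, and 5 were higher and 5 lower in peritoneum, against 9.93% and 11.1% of all genes. The 5 higher genes were of paralogue groups 5 to 9 and the 5 lower genes of groups 10 and 11, a split made after the values were seen. HOXC8 had 26.2 and 27.8 CPM in peritoneum and 1.13 and 0.971 CPM in native bladder (log2 fold change 4.67 ± 0.56 SE, adjusted p = 0.000496). HOXC9 had 21 and 23.2 CPM in peritoneum and 0.969 and 1.72 CPM in native bladder (log2 fold change 4.02 ± 0.57 SE, adjusted p = 0.000898). HOXB5 had 21.2 and 20.4 CPM in peritoneum and 1.21 and 2.54 CPM in native bladder (log2 fold change 3.46 ± 0.52 SE, adjusted p = 0.00117). Each of these genes was low in native bladder, and both peritoneum libraries lay above both native bladder libraries. HOXC5 had 4.08 and 2.32 CPM in peritoneum and 0 CPM in both native bladder libraries (at least 27.4-fold higher in peritoneum, adjusted p = 0.00775). HOXC6 had 4.69 and 5.88 CPM in peritoneum and 0.323 and 0 CPM in native bladder (log2 fold change 4.96 ± 1.24 SE, adjusted p = 0.0205). HOXC5 missed the threshold without bladder replicate 1 or bladder replicate 2 (adjusted p 0.000282 to 0.0591 over the 12 alternatives). HOXC6 missed the threshold without peritoneum replicate 2 or bladder replicate 2 (adjusted p 0.000604 to 0.104 over the 12 alternatives).

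At the tail end the order turned. HOXA10 had 9.88 and 19.1 CPM in peritoneum and 68.8 and 78.6 CPM in native bladder (log2 fold change -2.35 ± 0.43 SE, adjusted p = 0.00404). HOXC11 had 0 CPM in both peritoneum libraries and 5.65 and 5.01 CPM in native bladder (at least 37.4-fold lower in peritoneum, adjusted p = 0.00212). HOXD10 had 0 CPM in both peritoneum libraries and 1.53 and 5.83 CPM in native bladder (at least 25.8-fold lower in peritoneum, adjusted p = 0.00563). HOXD11 had 0 CPM in both peritoneum libraries and 1.94 and 4.11 CPM in native bladder (at least 21.2-fold lower in peritoneum, adjusted p = 0.00692). No count of HOXC11, HOXD10 or HOXD11 was found in either peritoneum library, and both native bladder libraries had each of them at low level. HOXA11 had 0 and 0.178 CPM in peritoneum and 3.31 and 4.11 CPM in native bladder (a ratio of 39.2 with a 95% counting interval of 10.6 to 328, adjusted p = 0.0124). HOXA11 missed the threshold without peritoneum replicate 1, bladder replicate 1 or bladder replicate 2 (adjusted p 0.000348 to 0.0651 over the 12 alternatives). Of the middle members of the HOXA and HOXB clusters, those closest between the tissues were HOXA7 at 22.9 and 21.5 against 17.3 and 19.3 CPM, HOXA9 at 17.2 and 12.3 against 17.9 and 23.3 CPM and HOXB7 at 37.8 and 32.7 against 18.1 and 29.3 CPM, none past the test (adjusted p = 0.673, 0.434 and 0.438). Others of these middle members were further apart without overlap but missed the threshold, with HOXA5 at 87.8 and 108 against 23.3 and 47.1 CPM, HOXB6 at 1.94 and 2.5 against 0.162 and 0.299 CPM and HOXB8 at 0.917 and 0.891 against 0 and 0.299 CPM (adjusted p = 0.0626, 0.0638 and 0.278), and HOXA5 passed by DESeq2 (adjusted p = 0.0277). Of the 13 tested members of groups 5 to 9 the 5 called were all higher, and of the 6 tested members of groups 10 to 13 the 5 called were all lower, in peritoneum. Neighbouring HOX genes overlap in annotation (HOXD10 and HOXD11 with HOXD9, for example), so the share of reads that belongs to each is uncertain. With 1 library left out, 5, 4, 4 and 3 HOX genes were called higher and 4, 5, 4 and 4 lower.

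**Figure D2:**
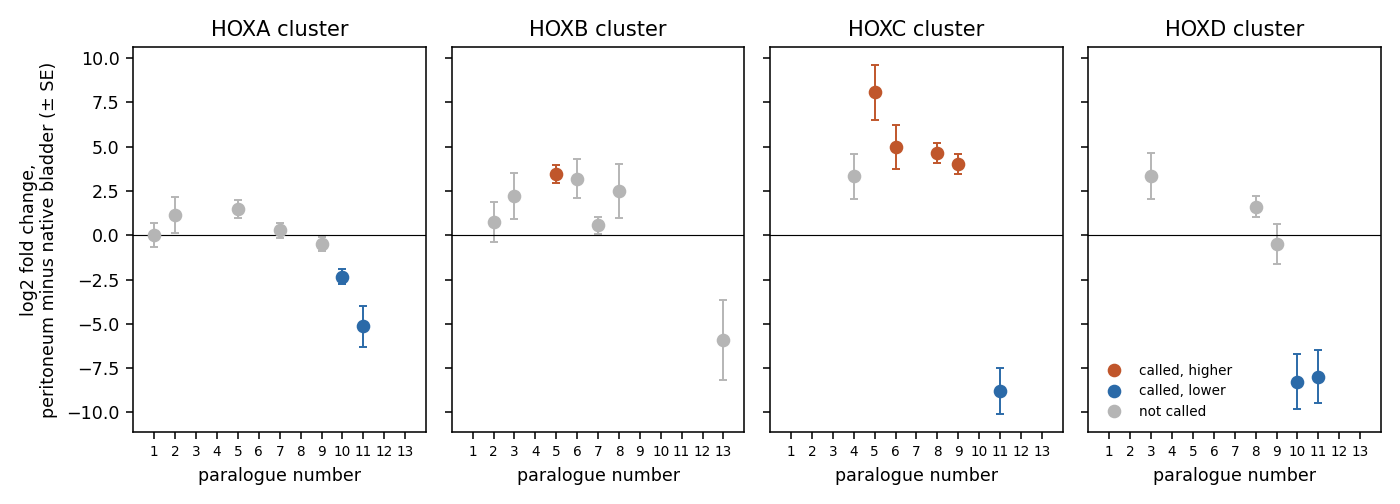
Log2 fold change, peritoneum minus native bladder, of each tested HOX gene (y axis) against its paralogue number (x axis) in 4 panels by cluster. Bars are an approximate standard error worked out from the test statistic. Called members lie above 0 at numbers 5 to 9 and below 0 at numbers 10 and 11.

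The plot by paralogue number places HOXC5 to HOXC9 together above 0, and shows that the wide bars belong to genes with few counts. For HOXC5, HOXC11, HOXD10, HOXD11 and the uncalled HOXB member at number 13, 1 tissue had 0 counts and the plotted height is no bound.

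Other factors that set tissue identity also parted by family member. GATA factors bind the same short DNA motif but act in different organs. GATA3, a urothelial factor, had 26 and 27.9 CPM in peritoneum and 147 and 206 CPM in native bladder (log2 fold change -2.71 ± 0.56 SE, adjusted p = 0.00724). GATA2 had 17.5 and 9.89 CPM in peritoneum and 54.4 and 76.7 CPM in native bladder (log2 fold change -2.26 ± 0.48 SE, adjusted p = 0.00803). GATA6, which acts in mesoderm and gut, had 66.4 and 72.8 CPM in peritoneum and 19.4 and 16.7 CPM in native bladder (log2 fold change 1.95 ± 0.45 SE, adjusted p = 0.0125). GATA5 had 3.46 and 11.4 CPM in peritoneum and 1.13 and 1.42 CPM in native bladder (log2 fold change 2.53 ± 0.80 SE, adjusted p = 0.0472). Each GATA call was lost without some library. GATA2 missed the threshold without peritoneum replicate 2 or bladder replicate 2 (adjusted p 2.5e-05 to 0.0792 over the 12 alternatives). GATA3 missed the threshold without peritoneum replicate 1 or peritoneum replicate 2 (adjusted p 4.63e-07 to 0.0662 over the 12 alternatives). GATA5 missed the threshold without peritoneum replicate 2, bladder replicate 1 or bladder replicate 2 and with library totals alone and with the replicate block and against a 1.5-fold change (adjusted p 0.00166 to 0.319 over the 12 alternatives). GATA6 missed the threshold without peritoneum replicate 2, bladder replicate 1 or bladder replicate 2 and with library totals alone (adjusted p 0.000325 to 0.103 over the 12 alternatives). FOXA1, a pioneer factor of urothelium, had 0.509 and 0.178 CPM in peritoneum and 206 and 232 CPM in native bladder (log2 fold change -9.30 ± 1.06 SE, adjusted p = 0.000277). FOXF1, a factor of gut and bladder mesenchyme, had 2.55 and 2.32 CPM in peritoneum and 123 and 120.1 CPM in native bladder (log2 fold change -5.64 ± 0.51 SE, adjusted p = 7.73e-05). TCF21, of visceral mesenchyme, had 1.63 and 3.65 CPM in peritoneum and 23.8 and 49 CPM in native bladder (log2 fold change -3.77 ± 0.52 SE, adjusted p = 0.000706). PRRX1, a factor of limb and body wall mesenchyme, had 63 and 51.1 CPM in peritoneum and 4.44 and 4.71 CPM in native bladder (log2 fold change 3.64 ± 0.49 SE, adjusted p = 0.000659), so mesenchymal factors stood on opposite sides. MEIS2, a HOX partner, had 76.7 and 83.4 CPM in peritoneum and 10.2 and 13 CPM in native bladder (log2 fold change 2.79 ± 0.51 SE, adjusted p = 0.0039). FOXO1, a factor regulated by insulin, had 39.6 and 57.2 CPM in peritoneum and 7.27 and 9.11 CPM in native bladder (log2 fold change 2.56 ± 0.38 SE, adjusted p = 0.0011). MEIS2 missed the threshold without bladder replicate 1 (adjusted p 5.21e-07 to 0.0586 over the 12 alternatives).

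Factors and splicing regulators that hold the epithelial state were mostly lower in peritoneum. Of 13 tested members 12 were lower in peritoneum, and their median log2 fold change was -5.62 against 0.015 over all tested genes. ELF3, a factor of differentiated epithelium, had 3.57 and 0.980 CPM in peritoneum and 1000.3 and 707 CPM in native bladder (log2 fold change -8.56 ± 0.85 SE, adjusted p = 0.000134). ESRP1, a splicing regulator of epithelial transcripts, had 0 and 0.0891 CPM in peritoneum and 102 and 90.9 CPM in native bladder (a ratio of 2023 with a 95% counting interval of 363 to 79953, adjusted p = 4.96e-05). TP63, the factor of basal cells in stratified epithelia, had 0.306 and 0 CPM in peritoneum and 31.3 and 47 CPM in native bladder (a ratio of 277 with a 95% counting interval of 94.5 to 1345, adjusted p = 0.000139). From other families, TFAP2C, an AP-2 factor, and SOX9 were also lower, with 0 and 0.446 against 17.4 and 7.99 CPM and 0 in both libraries against 10.8 and 3.14 CPM (adjusted p = 0.00153 and 0.00757). Both tested AP-2 factors were lower, while SOX9 was the 1 lower member of 5 tested SOX factors, of which 3 were higher (2, 1, 0 and 1 with 1 library left out). ZEB1, a repressor of epithelial genes, lay on the other side with 216 and 145 CPM in peritoneum and 35.9 and 33.8 CPM in native bladder (log2 fold change 2.37 ± 0.43 SE, adjusted p = 0.00391). Without each library in turn, 11, 9, 9 and 11 members were lower. ZEB1 missed the threshold without bladder replicate 1 or bladder replicate 2 (adjusted p 5.16e-07 to 0.0507 over the 12 alternatives).

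**Figure D3:**
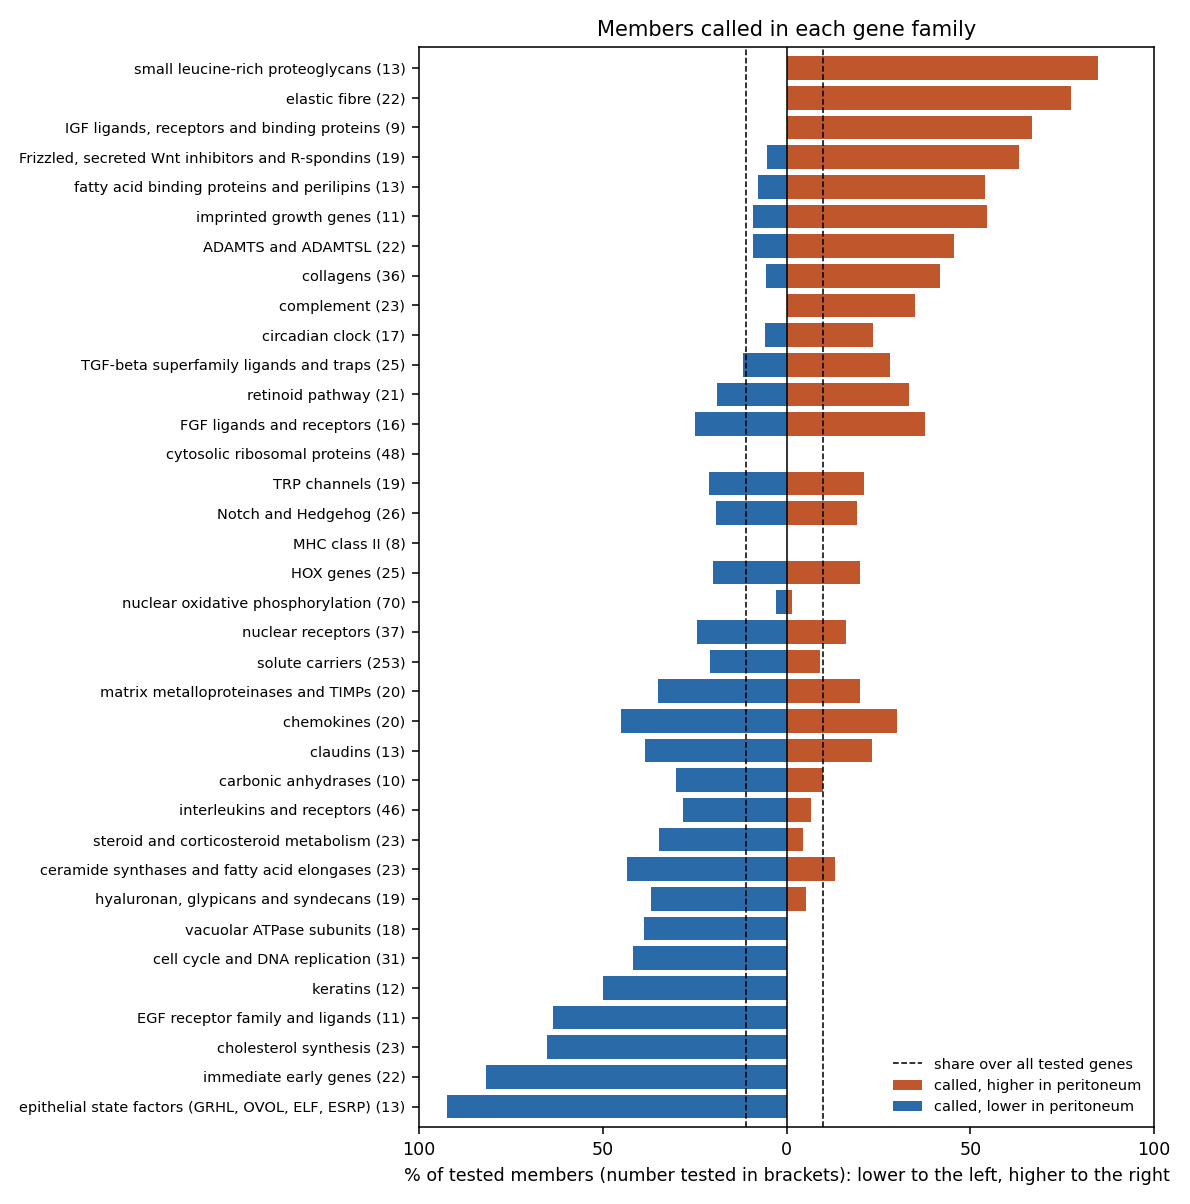
Share of tested members called in each gene family, with members higher in peritoneum to the right and members lower in peritoneum to the left of 0, and the number tested in brackets. Dashed lines mark 9.93% and 11.1%, the shares over all tested genes, and bars that reach past them hold more calls than genes at large.

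The plot of families holds those described at length and orders them by the difference between the shares of members higher and lower. Of the families plotted, small leucine-rich proteoglycans and elastic fibre genes were at the top and epithelial state factors and immediate early genes at the foot. Of 77 families with a tested member, 54 had calls in both directions, 8 only higher, 13 only lower and 2 none.

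Nuclear receptors are transcription factors switched by steroids, thyroid hormone, retinoids and lipids. Of 37 tested members 6 were higher and 9 lower in peritoneum, and receptors for oestrogen, glucocorticoid and thyroid hormone were among the higher. ESR1, the oestrogen receptor alpha, had 78.9 and 87.6 CPM in peritoneum and 12.8 and 10.4 CPM in native bladder (log2 fold change 2.84 ± 0.52 SE, adjusted p = 0.00392). NR3C1, the glucocorticoid receptor, had 76.3 and 81.3 CPM in peritoneum and 20.3 and 22.9 CPM in native bladder (log2 fold change 1.87 ± 0.34 SE, adjusted p = 0.00355). THRB, the thyroid hormone receptor beta, had 79.2 and 51.9 CPM in peritoneum and 11.9 and 12.9 CPM in native bladder (log2 fold change 2.40 ± 0.39 SE, adjusted p = 0.00195). For each receptor both peritoneum libraries lay above both native bladder libraries. PPARG, a receptor shared by fat cells and urothelium, had 54.7 and 33.8 CPM in peritoneum and 271 and 284 CPM in native bladder (log2 fold change -2.65 ± 0.46 SE, adjusted p = 0.00325), although the adipocyte markers were higher in peritoneum. In fits without 1 library, 6, 6, 3 and 4 receptors were called higher and 3, 6, 2 and 6 lower. ESR1 missed the threshold without bladder replicate 2 (adjusted p 6.35e-10 to 0.0552 over the 12 alternatives). NR3C1 missed the threshold without bladder replicate 1 (adjusted p 1.04e-06 to 0.0606 over the 12 alternatives).

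Enzymes that activate and remove steroids had more members lower than higher in peritoneum. HSD11B1 regenerates active cortisol from cortisone, and HSD11B2 inactivates cortisol. HSD11B1 had 281 and 265 CPM in peritoneum and 29.2 and 30.3 CPM in native bladder (log2 fold change 3.20 ± 0.47 SE, adjusted p = 0.00115). HSD11B2 had 0.713 and 0.624 CPM in peritoneum and 409 and 426 CPM in native bladder (log2 fold change -9.26 ± 0.86 SE, adjusted p = 9.1e-05), so the isoforms were in reverse order in the tissues with no overlap of libraries. HSD17B2, which oxidises active oestrogens and androgens, had 2.45 and 2.41 CPM in peritoneum and 717 and 825 CPM in native bladder (log2 fold change -8.31 ± 0.91 SE, adjusted p = 0.000226). SULT1E1, the oestrogen sulfotransferase, had 0.408 and 0.446 CPM in peritoneum and 270.0 and 191 CPM in native bladder (log2 fold change -9.03 ± 0.53 SE, adjusted p = 2.7e-05). SULT1C2, of the same superfamily, had 0 CPM in both peritoneum libraries and 14.6 and 18.2 CPM in native bladder (at least 115-fold lower in peritoneum, adjusted p = 0.000259). SULT1E1 and SULT1C2 were not counted in the steroid list. Of 15 tested glutathione, glucuronyl and sulfotransferase genes 1 was higher and 5 were lower in peritoneum. AKR1B1, an aldose reductase that also acts on prostaglandins, had 54.9 and 46.2 CPM in peritoneum and 519.7 and 466 CPM in native bladder (log2 fold change -3.28 ± 0.45 SE, adjusted p = 0.000735). Of the 23 tested members of the steroid list 1 (HSD11B1) was higher and 8 were lower, and with 1 library left out 5, 6, 7 and 6 were lower.

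Retinoic acid is made from stored or delivered vitamin A by retinal dehydrogenases and sensed by nuclear receptors. Of 21 tested genes of this pathway 7 were higher and 4 lower in peritoneum, with different members of a step in each tissue. The dehydrogenase ALDH1A1 had 33.1 and 21.3 CPM in peritoneum and 650.4 and 798 CPM in native bladder (log2 fold change -4.73 ± 0.62 SE, adjusted p = 0.000566). ALDH1A2, a mesothelial form, had 139 and 129 CPM in peritoneum and 31.3 and 34.4 CPM in native bladder (log2 fold change 2.03 ± 0.34 SE, adjusted p = 0.00236). ALDH1A3 had 124 and 332 CPM in peritoneum and 13.7 and 3.36 CPM in native bladder (log2 fold change 4.75 ± 0.74 SE, adjusted p = 0.00162). The 3 forms thus split, with ALDH1A1 higher in both native bladder libraries and the other forms higher in both peritoneum libraries. RBP4, the carrier of vitamin A in blood, had 18.1 and 8.47 CPM in peritoneum and 0 CPM in both native bladder libraries (at least 114-fold higher in peritoneum, adjusted p = 0.00108). LRAT, which stores vitamin A as esters, had 0.102 and 0 CPM in peritoneum and 41 and 37.7 CPM in native bladder (a ratio of 826 with a 95% counting interval of 148 to 32639, adjusted p = 6.93e-05). The intracellular carrier CRABP2 had 23.4 and 18.1 CPM in peritoneum and 286 and 221 CPM in native bladder (log2 fold change -3.61 ± 0.40 SE, adjusted p = 0.000228). CYP26B1, which degrades retinoic acid, was higher in peritoneum at 7.54 and 8.29 CPM in peritoneum and 0.242 and 0.299 CPM in native bladder (log2 fold change 4.81 ± 0.88 SE, adjusted p = 0.00389), while the receptor RARB was lower at 8.97 and 9.27 CPM in peritoneum and 56.9 and 65.1 CPM in native bladder (log2 fold change -2.74 ± 0.39 SE, adjusted p = 0.000946). When libraries were removed singly, 5, 6, 3 and 5 members were called higher and 5, 4, 4 and 4 lower. CYP26B1 missed the threshold without bladder replicate 1 (adjusted p 4e-06 to 0.0574 over the 12 alternatives).

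**Figure D4:**
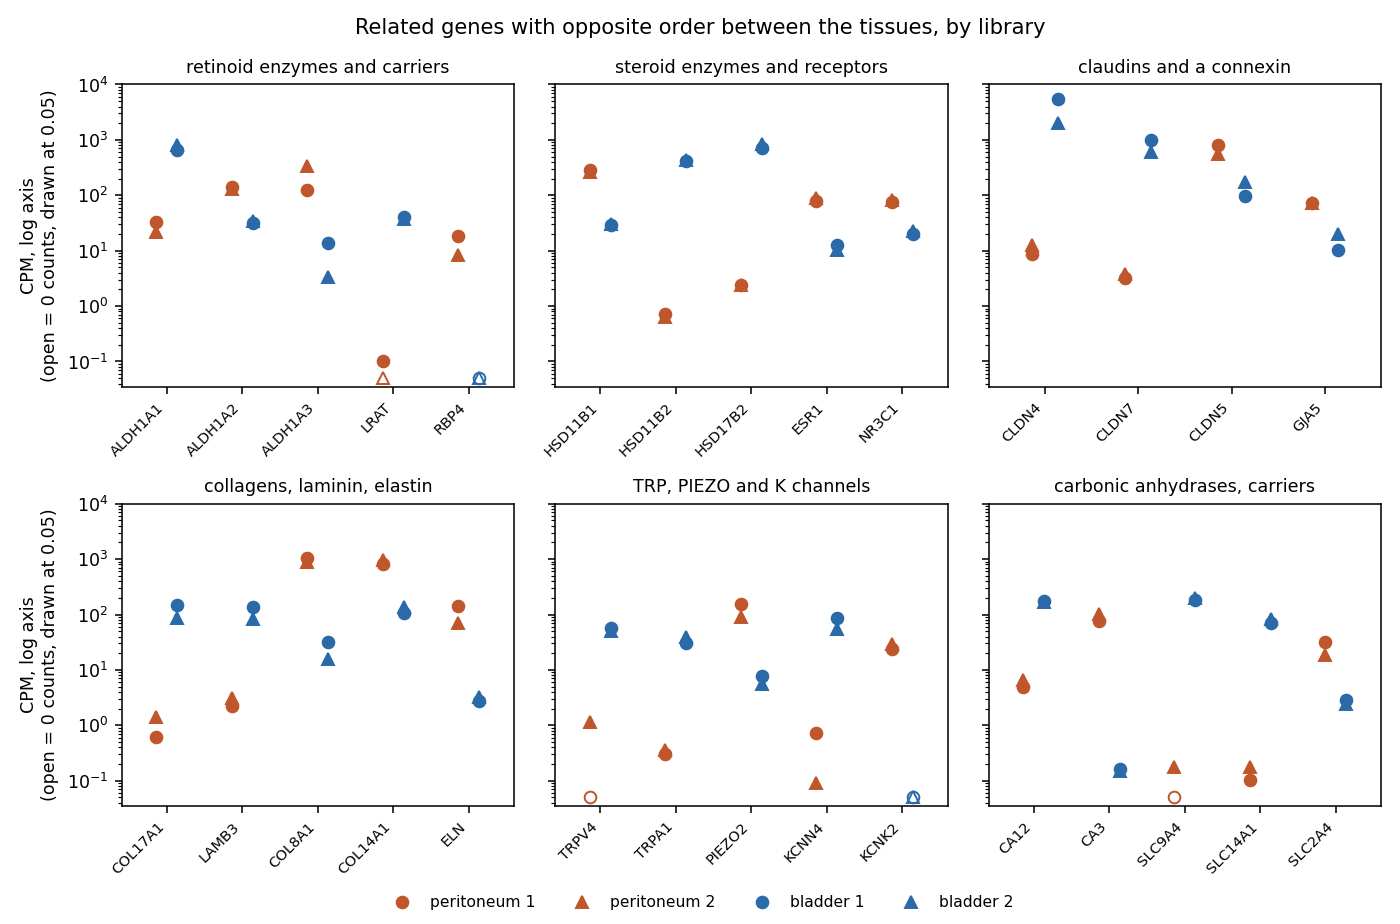
CPM of 29 genes in each library on a log axis, in 6 panels by function, with circles for replicate 1 and triangles for replicate 2 and open symbols for 0 counts. In each panel some genes have peritoneum above native bladder and some the reverse, as ALDH1A1 against ALDH1A2 and ALDH1A3, and HSD11B1 against HSD11B2.

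The plot of related genes shows that the replicates of a tissue lie close together compared with the distance between tissues for most of them. ALDH1A3, TRPV4 and KCNN4 are among those with visibly wider replicates.

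Wnt signalling is tuned outside the cell by R-spondins, which raise receptor levels through LGR receptors, and by secreted inhibitors of the SFRP, DKK and WIF families. This outer layer of the pathway was among the families with the largest share of higher calls. Of 19 tested genes for Frizzled receptors, secreted inhibitors, R-spondins and LGR receptors 12 were higher and 1 lower in peritoneum, with a median log2 fold change of 2.25. The inhibitor DKK2 had 409 and 552 CPM in peritoneum and 0.646 and 2.69 CPM in native bladder (log2 fold change 8.15 ± 0.83 SE, adjusted p = 0.000159). SFRP4 had 736 and 826 CPM in peritoneum and 6.3 and 21.6 CPM in native bladder (log2 fold change 5.80 ± 0.63 SE, adjusted p = 0.000228). SFRP2 had 84.8 and 219 CPM in peritoneum and 0 and 0.149 CPM in native bladder (a ratio of 2013 with a 95% counting interval of 557 to 16627, adjusted p = 0.000216). LGR5, an R-spondin receptor known as a stem cell marker in gut, had 118 and 289.7 CPM in peritoneum and 0.323 and 0.598 CPM in native bladder (log2 fold change 8.74 ± 0.74 SE, adjusted p = 6.18e-05), and its annotated span overlaps that of TSPAN8. With RSPO1, the list held an enhancer, a receptor for it and several inhibitors that were all higher in both peritoneum libraries. FZD3, a receptor, was the lower member at 0.509 and 1.6 CPM in peritoneum and 8.32 and 10.7 CPM in native bladder (log2 fold change -3.14 ± 0.60 SE, adjusted p = 0.00477). Of 12 Wnt ligands 4 were higher and 2 lower, and the epithelial ligand WNT7B had 0.917 and 1.96 CPM in peritoneum and 17.9 and 11.2 CPM in native bladder (log2 fold change -3.32 ± 0.61 SE, adjusted p = 0.00522). With 1 library left out, 12, 9, 8 and 8 of the receptor and inhibitor genes were higher, and 2, 2, 0 and 0 ligands.

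BMP and TGF-beta ligands are restrained by secreted traps, and members of this superfamily were called in both directions. The share called lower in peritoneum, 12%, was near the 11.1% of all genes. The share called higher was 28% against 9.93%. BMP5 and BMP7, ligands of bladder and kidney epithelia, had 3.16 and 1.43 against 32.4 and 42.6 CPM and 2.04 and 1.78 against 11.8 and 17.8 CPM in peritoneum against native bladder (adjusted p = 0.000323 and 0.00463). The trap CHRDL1 had 435 and 592 CPM in peritoneum and 72.5 and 52.7 CPM in native bladder (log2 fold change 3.04 ± 0.43 SE, adjusted p = 0.000804). FST, which binds activins, had 47.5 and 85.7 CPM in peritoneum and 6.95 and 6.72 CPM in native bladder (log2 fold change 3.28 ± 0.46 SE, adjusted p = 0.000783). TGFB3, a TGF-beta ligand, had 627 and 337 CPM in peritoneum and 46.4 and 21.8 CPM in native bladder (log2 fold change 3.82 ± 0.61 SE, adjusted p = 0.0018), so 2 BMP ligands were lower and traps and a TGF-beta ligand were higher in both peritoneum libraries. Of the 25 tested genes of the superfamily 7 were higher and 3 lower, and 5, 6, 3 and 4 were higher with 1 library left out.

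Among receptors and carriers for fibroblast growth factors, the epithelial ones named here were lower in peritoneum. FGFR2, the epithelial receptor, had 0.917 and 0.713 CPM in peritoneum and 58.9 and 71.8 CPM in native bladder (log2 fold change -6.31 ± 0.47 SE, adjusted p = 4.62e-05). FGFR3, the receptor often altered in urothelial tumours, had 1.32 and 0.713 CPM in peritoneum and 40.7 and 48.2 CPM in native bladder (log2 fold change -5.45 ± 0.51 SE, adjusted p = 9.3e-05). FGFBP1, which frees growth factor from matrix, had 0.815 and 0.446 CPM in peritoneum and 224 and 388 CPM in native bladder (log2 fold change -8.91 ± 1.05 SE, adjusted p = 0.000325). In this family of 16 tested genes 6 were higher and 4 lower in peritoneum, but with 1 library left out 2, 1, 0 and 1 were higher and 3, 4, 3 and 3 lower. Of 9 tested insulin-like growth factor genes 6 were higher and 0 lower in peritoneum by edgeR, as by DESeq2. IGF1 had 21 and 24.2 CPM in peritoneum and 5.09 and 3.74 CPM in native bladder (log2 fold change 2.36 ± 0.47 SE, adjusted p = 0.00628). The binding protein gene IGFBP5 had 1012 and 1206 CPM in peritoneum and 179.6 and 253 CPM in native bladder (log2 fold change 2.36 ± 0.43 SE, adjusted p = 0.00363). Without each library in turn, 2, 4, 1 and 2 of the family were higher. IGF1 missed the threshold without bladder replicate 2 (adjusted p 0.000103 to 0.0724 over the 12 alternatives). IGFBP5 missed the threshold without bladder replicate 1 (adjusted p 5.29e-11 to 0.0811 over the 12 alternatives).

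Hedgehog ligands are sent by epithelium and read by the stroma beneath. SHH, the ligand of urothelium, had 0 CPM in both peritoneum libraries and 17.5 and 17.6 CPM in native bladder (at least 123-fold lower in peritoneum, adjusted p = 0.000128). HHIP, which binds the ligand, had 0.204 and 2.05 CPM in peritoneum and 24.4 and 27.2 CPM in native bladder (log2 fold change -4.47 ± 0.81 SE, adjusted p = 0.00379), and the effector GLI3 was on the other side with 37.4 and 50.7 CPM in peritoneum and 14.9 and 13.6 CPM in native bladder (log2 fold change 1.63 ± 0.40 SE, adjusted p = 0.0171). Both native bladder libraries had ligand and binding protein and both peritoneum libraries had more effector. Of 26 tested Notch and Hedgehog genes 5 were higher and 5 lower, and 3, 2, 0 and 1 were higher with 1 library left out. GLI3 missed the threshold without peritoneum replicate 2, bladder replicate 1 or bladder replicate 2 and with library totals alone (adjusted p 0.00114 to 0.126 over the 12 alternatives).

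Ligands of the EGF receptor, which drive renewal of urothelium after injury, were among the genes lower in peritoneum. Of 11 tested genes for the receptor family and its ligands 7 (63.6%, against 11.1% of all genes) were lower, with the ligands named here among them. HBEGF had 5.5 and 7.57 CPM in peritoneum and 823 and 119 CPM in native bladder (log2 fold change -6.17 ± 0.92 SE, adjusted p = 0.00121). AREG had 0.102 and 0.446 CPM in peritoneum and 83.8 and 15.8 CPM in native bladder (log2 fold change -7.40 ± 1.18 SE, adjusted p = 0.0018). EREG had 0 and 0.0891 CPM in peritoneum and 37.6 and 7.77 CPM in native bladder (a ratio of 465 with a 95% counting interval of 83.1 to 18383, adjusted p = 0.00128). For these ligands native bladder replicate 1 lay well above replicate 2, although both exceeded peritoneum. TGFA, a further ligand, had 0.306 and 0.0891 CPM in peritoneum and 76.3 and 61.3 CPM in native bladder (log2 fold change -8.40 ± 0.58 SE, adjusted p = 3.88e-05) with close replicates. The urokinase system followed the same order of libraries, with PLAU at 41.2 and 65.5 CPM in peritoneum and 906 and 278 CPM in native bladder (log2 fold change -3.47 ± 0.74 SE, adjusted p = 0.00837) and its receptor gene PLAUR at 20.6 and 33.9 CPM in peritoneum and 881 and 161 CPM in native bladder (log2 fold change -4.26 ± 0.80 SE, adjusted p = 0.0046). Of 15 tested genes of fibrinolysis and anticoagulation 2 were higher and 4 lower in peritoneum, and fewer were called with any 1 library left out. In fits without 1 library, 6, 6, 6 and 6 members of the EGF family were lower. PLAU missed the threshold without peritoneum replicate 1 or bladder replicate 1 (adjusted p 2.19e-09 to 0.0839 over the 12 alternatives). PLAUR missed the threshold without peritoneum replicate 1 (adjusted p 9.91e-14 to 0.0529 over the 12 alternatives).

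**Figure D5:**
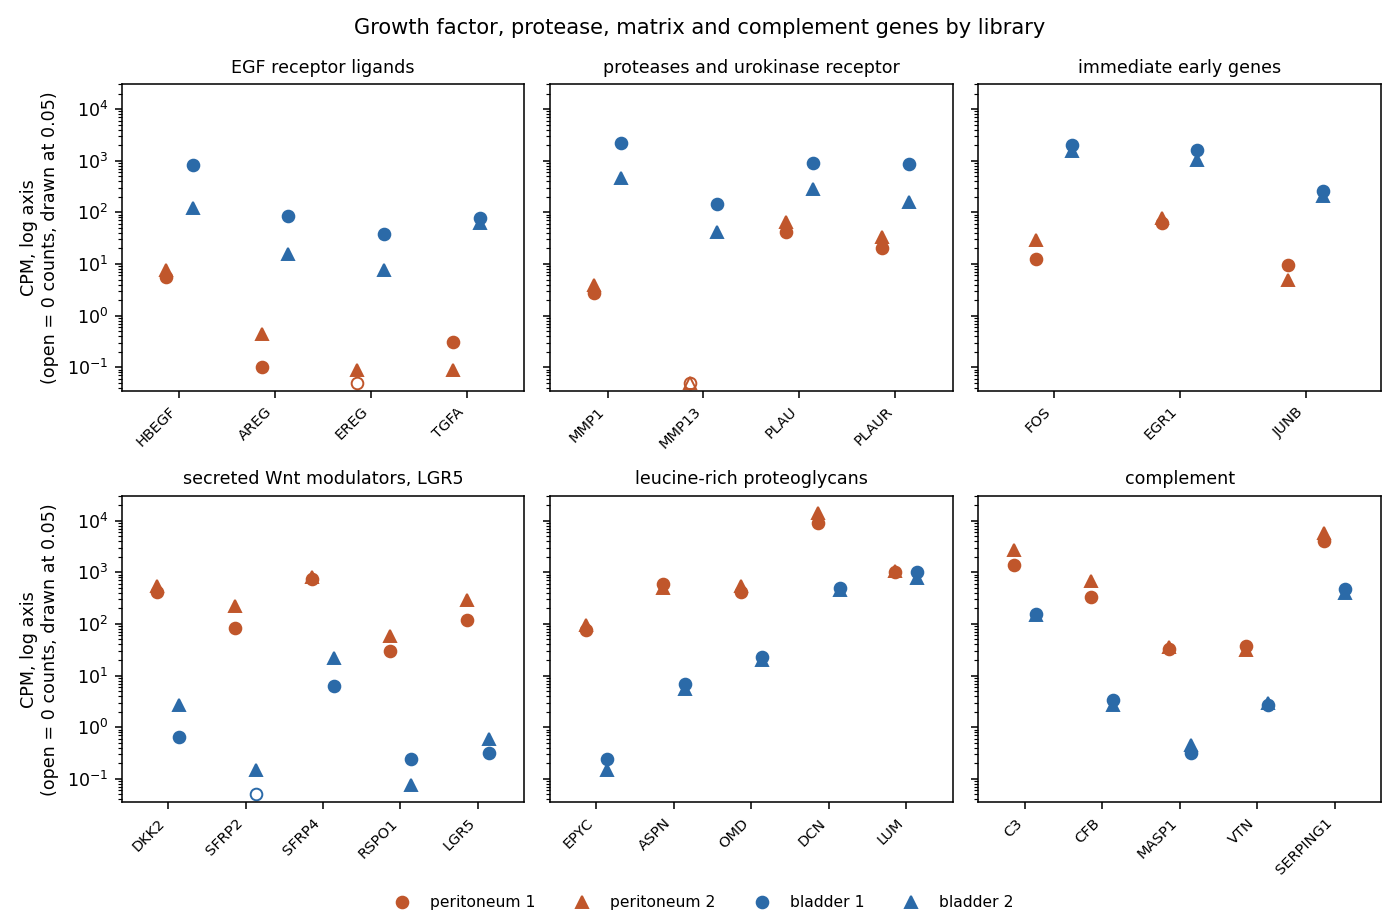
CPM of 26 genes in each library on a log axis, in 6 panels by function, with circles for replicate 1, triangles for replicate 2 and open symbols for 0 counts. The upper panels hold genes higher in native bladder, where HBEGF, AREG, EREG, MMP1 and PLAUR have replicate 1 well above replicate 2, and the lower panels hold genes higher in peritoneum, with LUM near even.

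The plot by library shows the distance between native bladder replicates for the EGF receptor ligands and proteases beside the close replicates of the immediate early and complement genes. It also shows LUM as the even member among the proteoglycans.

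Small leucine-rich proteoglycans coat collagen fibrils and set their spacing. Of 13 tested members 11 were higher in peritoneum, at a median log2 fold change of 3.93, and 11, 11, 10 and 10 were higher with 1 library left out. EPYC, best known from cartilage, had 76.7 and 97.3 CPM in peritoneum and 0.242 and 0.149 CPM in native bladder (log2 fold change 8.72 ± 0.58 SE, adjusted p = 5.98e-05). ASPN had 599 and 491 CPM in peritoneum and 6.87 and 5.6 CPM in native bladder (log2 fold change 6.45 ± 0.71 SE, adjusted p = 0.000228). OMD, known from bone, had 411 and 553 CPM in peritoneum and 22.5 and 20.4 CPM in native bladder (log2 fold change 4.49 ± 0.46 SE, adjusted p = 0.000165). LUM, a proteoglycan of most connective tissues, had 1025 and 1069 CPM in peritoneum and 999 and 760.4 CPM in native bladder and did not pass the test (adjusted p = 0.738), so that the members did not share 1 ratio. The annotated spans of ASPN and OMD lie within that of CENPP, so the share of reads that belongs to each is uncertain.

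Elastic fibres let a tissue recoil, and are built of elastin on fibrillin scaffolds. Of 22 tested genes 17 were higher in peritoneum, with a median of 2.15. ELN, elastin itself, had 140.3 and 70.9 CPM in peritoneum and 2.75 and 3.29 CPM in native bladder (log2 fold change 5.12 ± 0.47 SE, adjusted p = 8.12e-05). FBN2, a fibrillin of growing tissue, had 72.5 and 32.1 CPM in peritoneum and 0 and 0.448 CPM in native bladder (log2 fold change 7.75 ± 0.87 SE, adjusted p = 0.00026). LTBP2, a fibrillin-binding protein, had 457 and 419 CPM in peritoneum and 7.51 and 7.62 CPM in native bladder (log2 fold change 5.85 ± 0.51 SE, adjusted p = 7.05e-05). All 3 were far above native bladder in both peritoneum libraries. The count rested on the libraries more than for the proteoglycans, with 13, 12, 8 and 6 members called when 1 was left out.

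Collagens had more members higher than lower in peritoneum. Of 36 tested genes 15 were higher and 2 lower, with a median of 1.83, and 14, 12, 10 and 10 were higher with 1 library left out. COL8A1, a network collagen of vessel and membrane, had 1063 and 884 CPM in peritoneum and 31.7 and 15.7 CPM in native bladder (log2 fold change 5.36 ± 0.58 SE, adjusted p = 0.000221). COL14A1, a fibril-associated collagen, had 832 and 977 CPM in peritoneum and 106 and 136 CPM in native bladder (log2 fold change 2.90 ± 0.41 SE, adjusted p = 0.000838). COL17A1, the anchor of basal epithelial cells to their basement membrane, had 0.611 and 1.43 CPM in peritoneum and 149 and 88 CPM in native bladder (log2 fold change -6.83 ± 0.66 SE, adjusted p = 0.000116). COL3A1, of the main fibrous collagens, had 8496 and 11927 CPM in peritoneum and 3082 and 5293 CPM in native bladder and did not pass the test (adjusted p = 0.202). Among procollagen-processing enzymes ADAMTS2 had 395 and 342 CPM in peritoneum and 26.2 and 29.7 CPM in native bladder (log2 fold change 3.72 ± 0.43 SE, adjusted p = 0.000303), and 10 of 22 members of its family were higher and 2 lower. Without each library in turn 5, 5, 2 and 3 of that family were higher.

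Of the called matrix-degrading enzymes and inhibitors most were lower in peritoneum. MMP1 had 2.75 and 4.01 CPM in peritoneum and 2169 and 467 CPM in native bladder (log2 fold change -8.60 ± 0.93 SE, adjusted p = 0.000221). MMP13 had 0 CPM in both peritoneum libraries and 143 and 42.2 CPM in native bladder (at least 650.2-fold lower in peritoneum, adjusted p = 0.00026). MMP7, of epithelial glands, had 0.509 and 0.535 CPM in peritoneum and 202 and 575 CPM in native bladder (log2 fold change -9.51 ± 1.59 SE, adjusted p = 0.00246). Both collagenase genes, MMP1 and MMP13, were higher in native bladder replicate 1 than in replicate 2, and MMP7 was the reverse. MMP9, of leukocytes and epithelium, had 1.12 and 0.624 CPM in peritoneum and 30.6 and 36.9 CPM in native bladder (log2 fold change -5.27 ± 0.65 SE, adjusted p = 0.000401). MMP2, the gelatinase of fibroblasts, was on the other side at 914 and 1152 CPM in peritoneum and 211 and 208 CPM in native bladder (log2 fold change 2.30 ± 0.46 SE, adjusted p = 0.00619). Of 20 tested metalloproteinase and inhibitor genes 4 were higher and 7 lower, and with 1 library left out 3, 3, 1 and 1 were higher and 6, 6, 5 and 6 lower. MMP2 missed the threshold without bladder replicate 1 or bladder replicate 2 (adjusted p 7.48e-08 to 0.0851 over the 12 alternatives).

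Hyaluronan and its binding proteins and cell-surface proteoglycans had 1 of 19 members higher and 7 lower in peritoneum. GPC3, a glypican of mesoderm, was the higher member at 249 and 285 CPM in peritoneum and 26 and 18.8 CPM in native bladder (log2 fold change 3.57 ± 0.62 SE, adjusted p = 0.00288). HAPLN1, a link protein that fixes hyaluronan to matrix, had 0.204 and 0.891 CPM in peritoneum and 57.4 and 59.9 CPM in native bladder (log2 fold change -6.68 ± 0.58 SE, adjusted p = 6.8e-05). The hyaluronan receptor CD44 had 59.9 and 55.7 CPM in peritoneum and 309 and 256 CPM in native bladder (log2 fold change -2.29 ± 0.38 SE, adjusted p = 0.00236). SDC1, an epithelial syndecan, had 39 and 30.3 CPM in peritoneum and 635 and 411 CPM in native bladder (log2 fold change -3.92 ± 0.56 SE, adjusted p = 0.000931). When libraries were removed singly, 4, 5, 3 and 3 members were lower.

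Genes of cell contacts differed in both directions. Claudins, the strands of tight junctions, had 3 members higher and 5 lower of 13 tested. Of 9 tested genes of desmosomes, the rivets of stratified epithelium, 3 were lower, and of 9 tested connexins, the channels between neighbouring cells, 3 were higher and 2 lower. CLDN4 had 8.66 and 12.7 CPM in peritoneum and 5507 and 2022 CPM in native bladder (log2 fold change -8.46 ± 0.92 SE, adjusted p = 0.000228). CLDN7 had 3.26 and 3.74 CPM in peritoneum and 1013 and 595 CPM in native bladder (log2 fold change -7.84 ± 0.65 SE, adjusted p = 5.78e-05). CLDN8 had 0 CPM in both peritoneum libraries and 20.2 and 30.6 CPM in native bladder (at least 178-fold lower in peritoneum, adjusted p = 0.000228). CLDN5, the claudin of endothelium, went the other way with 798 and 567 CPM in peritoneum and 96 and 177 CPM in native bladder (log2 fold change 2.32 ± 0.52 SE, adjusted p = 0.0104), as did 6 of 7 endothelium markers. GJA5, an arterial connexin, was also higher at 71.6 and 72.7 CPM in peritoneum and 10.4 and 19.8 CPM in native bladder (log2 fold change 2.25 ± 0.40 SE, adjusted p = 0.00337). With 1 library left out, 0, 1, 0 and 1 claudins were higher and 4, 4, 4 and 4 lower. CLDN5 missed the threshold without peritoneum replicate 1 or bladder replicate 1 (adjusted p 3.43e-05 to 0.138 over the 12 alternatives). GJA5 missed the threshold without bladder replicate 1 (adjusted p 7.25e-06 to 0.0542 over the 12 alternatives).

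Keratins had 6 of 12 tested members lower in peritoneum. KRT7, a keratin of simple and transitional epithelia, had 159 and 359.9 CPM in peritoneum and 4825 and 3564 CPM in native bladder (log2 fold change -4.02 ± 0.74 SE, adjusted p = 0.00419). KRT18, the partner of KRT8, had 3.06 and 1.51 CPM in peritoneum and 135 and 109.9 CPM in native bladder (log2 fold change -5.75 ± 0.56 SE, adjusted p = 0.00012). KRT4, of stratified squamous epithelium, had 0 CPM in both peritoneum libraries and 8.64 and 6.72 CPM in native bladder (at least 53.9-fold lower in peritoneum, adjusted p = 0.000188), so KRT8 stood alone among the named keratins in its overlap. LAMB3, a laminin chain that anchors epithelium, had 2.24 and 3.12 CPM in peritoneum and 138 and 83.2 CPM in native bladder (log2 fold change -5.36 ± 0.65 SE, adjusted p = 0.000384). ITGB6, an epithelial integrin that activates TGF-beta, had 0.408 and 0.267 CPM in peritoneum and 202 and 134 CPM in native bladder (log2 fold change -8.92 ± 0.57 SE, adjusted p = 2.7e-05), and ITGA7, a laminin receptor of muscle and vessel, was on the other side at 114 and 85.5 CPM in peritoneum and 18.7 and 16.6 CPM in native bladder (log2 fold change 2.50 ± 0.39 SE, adjusted p = 0.00146). KRT7 missed the threshold without peritoneum replicate 1 (adjusted p 1.16e-10 to 0.0568 over the 12 alternatives).

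Ceramides and very long fatty acids form water barriers in epithelium. Of 23 tested synthesis and elongation genes 3 were higher and 10 lower in peritoneum. CERS3, the ceramide synthase for ultralong chains known from skin, had 0 CPM in both peritoneum libraries and 25.8 and 26.8 CPM in native bladder (at least 185-fold lower in peritoneum, adjusted p = 0.00012). DEGS2, which makes phytoceramides, had 0.306 and 1.96 CPM in peritoneum and 378 and 365 CPM in native bladder (log2 fold change -8.32 ± 0.80 SE, adjusted p = 0.000119). SPTSSB, a small subunit of the first enzyme of the pathway, had 0.306 and 2.58 CPM in peritoneum and 664 and 594 CPM in native bladder (log2 fold change -8.73 ± 0.86 SE, adjusted p = 0.000125). All 3 were close to background in peritoneum and level between native bladder replicates. CERS6 had 3.97 and 9.27 CPM in peritoneum and 200.1 and 189 CPM in native bladder (log2 fold change -4.87 ± 0.71 SE, adjusted p = 0.00108). Without each library in turn, 1, 0, 0 and 0 of these genes were higher and 7, 7, 6 and 8 lower.

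Solute carriers and channels for salt, urea and water had calls in both directions. Of sodium and chloride channel genes 12.1% were called higher and 15.2% lower in peritoneum, near the 9.93% and 11.1% of all genes. SCNN1B and SCNN1G, subunits of the epithelial sodium channel, had 0.102 and 0 CPM in peritoneum and 129 and 152 CPM in native bladder (a ratio of 2965 with a 95% counting interval of 532 to 117141, adjusted p = 3.73e-05) and 0 CPM in both peritoneum libraries and 30.9 and 49.2 CPM in native bladder (at least 281-fold lower in peritoneum, adjusted p = 6.17e-05). SLC14A1, a urea transporter, had 0.102 and 0.178 CPM in peritoneum and 69.9 and 83.3 CPM in native bladder (a ratio of 539 with a 95% counting interval of 184 to 2616, adjusted p = 6.4e-05). SLC9A4, a sodium-proton exchanger best known from stomach, had 0 and 0.178 CPM in peritoneum and 180.3 and 199 CPM in native bladder (a ratio of 2001 with a 95% counting interval of 554 to 16531, adjusted p = 4.94e-05). Each of these had at most 2 counts in a peritoneum library. Of 33 tested sodium and chloride channel genes 4 were higher and 5 lower, and 1, 2, 1 and 1 were higher and 4, 5, 5 and 5 lower with 1 library left out. The water and glycerol channel AQP3 had 20.2 and 7.22 CPM in peritoneum and 325 and 433 CPM in native bladder (log2 fold change -4.79 ± 0.59 SE, adjusted p = 0.000395), and AQP10, the other aquaporin called of 6 tested, had 0.917 and 0.891 CPM in peritoneum and 0 CPM in both native bladder libraries (at least 7.76-fold higher in peritoneum, adjusted p = 0.0492). SLC2A4, the glucose carrier that insulin brings to the surface of fat and muscle cells, was on the other side at 32.1 and 18.3 CPM in peritoneum and 2.91 and 2.39 CPM in native bladder (log2 fold change 3.24 ± 0.47 SE, adjusted p = 0.000946), beside adipocyte markers that were all higher. Of 253 tested solute carriers 23 (below the 9.93% of all genes) were higher and 53 lower in peritoneum. In fits without 1 library, 11, 15, 7 and 8 carriers were higher and 29, 37, 31 and 34 lower. AQP10 missed the threshold in most alternatives, each fit with 1 library left out included (adjusted p 0.0177 to 0.198).

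Mechanical and chemical sensors were also found on both sides. TRPV4, a stretch and osmotic sensor of urothelium, had 0 and 1.16 CPM in peritoneum and 57.3 and 51.4 CPM in native bladder (log2 fold change -6.47 ± 0.93 SE, adjusted p = 0.000972). TRPA1, an irritant sensor, had 0.306 and 0.356 CPM in peritoneum and 30.8 and 39.4 CPM in native bladder (log2 fold change -6.67 ± 0.58 SE, adjusted p = 6.8e-05). TRPM4, a calcium-activated cation channel, had 12.6 and 8.29 CPM in peritoneum and 167 and 182 CPM in native bladder (log2 fold change -4.06 ± 0.64 SE, adjusted p = 0.00173). PIEZO2, a mechanically gated channel, was higher in both peritoneum libraries at 155 and 91.4 CPM in peritoneum and 7.92 and 5.45 CPM in native bladder (log2 fold change 4.20 ± 0.45 SE, adjusted p = 0.000195), as was PKD2, a cation channel of cilia, at 75.3 and 102 CPM in peritoneum and 6.22 and 7.84 CPM in native bladder (log2 fold change 3.65 ± 0.40 SE, adjusted p = 0.000222). The potassium channels KCNK2, opened by stretch and lipids, and KCNN4, opened by calcium, stood in opposite order, in a family of 41 with 9 higher and 6 lower. KCNK2 had 24 and 29.3 CPM in peritoneum and 0 CPM in both native bladder libraries (at least 229-fold higher in peritoneum, adjusted p = 0.000543). KCNN4 had 0.713 and 0.0891 CPM in peritoneum and 87.5 and 55.6 CPM in native bladder (log2 fold change -7.49 ± 0.69 SE, adjusted p = 8.57e-05). Of 19 tested TRP, polycystin and PIEZO genes 4 were higher and 4 lower, and 4, 3, 3 and 2 were higher with 1 library left out.

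Genes of acid handling included members that were lower in peritoneum. CA12, a membrane carbonic anhydrase, had 4.99 and 6.59 CPM in peritoneum and 177 and 168 CPM in native bladder (log2 fold change -4.89 ± 0.53 SE, adjusted p = 0.000216), while CA3, the form of muscle and fat, had 77.7 and 101 CPM in peritoneum and 0.162 and 0.149 CPM in native bladder (log2 fold change 9.06 ± 0.72 SE, adjusted p = 5.36e-05). The vacuolar proton pump had 7 of 18 tested subunits lower, and for all 18 both peritoneum libraries lay below both native bladder libraries, against 35.3% of all tested genes. Cell-type-specific subunits showed the largest gaps among those named, with ATP6V0D2 at 0 CPM in both peritoneum libraries and 66.8 and 66.1 CPM in native bladder (at least 466-fold lower in peritoneum, adjusted p = 0.000401) and ATP6V1G3 at 0.408 and 0.0891 CPM in peritoneum and 57.8 and 111 CPM in native bladder (log2 fold change -8.39 ± 0.95 SE, adjusted p = 0.00027). When libraries were removed singly, 3, 3, 3 and 3 subunits were lower.

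Cholesterol is made from acetyl units by a chain of enzymes that one transcription factor family regulates together. Of 23 tested members 15 were lower in peritoneum, at a median log2 fold change of -2.02, and for all 23 the peritoneum libraries lay below the native bladder libraries, against 35.3% of all tested genes. MVK, an early kinase of the pathway, had 2.55 and 0.713 CPM in peritoneum and 32.3 and 30.6 CPM in native bladder (log2 fold change -4.28 ± 0.57 SE, adjusted p = 0.000614). SC5D, of its last steps, had 7.95 and 9.89 CPM in peritoneum and 93.4 and 76.4 CPM in native bladder (log2 fold change -3.25 ± 0.41 SE, adjusted p = 0.000489). Both were higher in both native bladder libraries. With 1 library left out, 9, 8, 7 and 12 members were lower.

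Genes of fat cells and fat storage differed by family, beside adipocyte markers that were all higher, whose part was not tested. FABP4, the fatty acid carrier of fat cells, had 447 and 312 CPM in peritoneum and 1.37 and 0.672 CPM in native bladder (log2 fold change 8.53 ± 0.89 SE, adjusted p = 0.000178). CIDEC, a lipid droplet protein, had 102 and 72 CPM in peritoneum and 0.242 and 1.12 CPM in native bladder (log2 fold change 6.95 ± 0.81 SE, adjusted p = 0.000318). THRSP, which raises fatty acid synthesis, had 28.6 and 13.9 CPM in peritoneum and 0.162 and 0.598 CPM in native bladder (log2 fold change 5.75 ± 0.74 SE, adjusted p = 0.000528). For these genes native bladder had at most 1.37 CPM in a library. FABP5, an epidermal relative that fat and endothelium also express, had 513 and 471 CPM in peritoneum and 73.5 and 76.5 CPM in native bladder (log2 fold change 2.71 ± 0.48 SE, adjusted p = 0.00348). Of 13 tested fatty acid binding protein and perilipin genes 7 were higher and 1 lower, and 4, 5, 3 and 4 were higher with 1 library left out. Of 29 tested genes of triglyceride synthesis and lipolysis, THRSP among them, 6 were higher and 5 lower, their median log2 fold change was -0.03, and 5, 5, 2 and 2 were higher and 1, 0, 1 and 2 lower with 1 library left out. FABP5 missed the threshold without bladder replicate 1 (adjusted p 1.18e-07 to 0.0571 over the 12 alternatives).

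Innate defence genes differed in kind. Complement, a cascade of plasma proteins made in liver and locally, had 8 of 23 tested members higher in peritoneum. C3, its central protein, had 1410.4 and 2647 CPM in peritoneum and 156 and 149 CPM in native bladder (log2 fold change 3.74 ± 0.62 SE, adjusted p = 0.00224). CFB, of the alternative pathway, had 333 and 680.1 CPM in peritoneum and 3.31 and 2.69 CPM in native bladder (log2 fold change 7.40 ± 1.04 SE, adjusted p = 0.000824). MASP1, a protease of the lectin pathway, had 32.2 and 36.1 CPM in peritoneum and 0.323 and 0.448 CPM in native bladder (log2 fold change 6.42 ± 0.98 SE, adjusted p = 0.0014). The regulator VTN was higher as well, with 37.1 and 31.1 CPM in peritoneum and 2.75 and 2.91 CPM in native bladder (log2 fold change 3.58 ± 0.42 SE, adjusted p = 0.000314). A regulator not counted in this list, the serpin SERPING1, had 4112 and 5728 CPM in peritoneum and 465 and 406 CPM in native bladder (log2 fold change 3.50 ± 0.57 SE, adjusted p = 0.00198). Of 17 tested serpins 4 were higher and 6 lower in peritoneum. The activators and inhibitors named here thus stood on the same side in both peritoneum libraries. Over the list of 23, no member was called lower. Both peritoneum libraries lay above both native bladder libraries for 12 members and below them for 6. The shares of all tested genes were 34.7% and 35.3%. Fewer members were called higher with any 1 library left out.

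Chemokines drew apart, with 6 of 20 tested members higher and 9 lower in peritoneum. CXCL12, a homing signal of stroma, had 679.9 and 604 CPM in peritoneum and 21.8 and 25 CPM in native bladder (log2 fold change 4.78 ± 0.70 SE, adjusted p = 0.00109). CXCL8 and CXCL2, which attract neutrophils, had 0.102 and 1.07 CPM in peritoneum and 46.9 and 36.1 CPM in native bladder (log2 fold change -6.07 ± 0.89 SE, adjusted p = 0.00109) and 2.65 and 2.5 CPM in peritoneum and 88.6 and 71.4 CPM in native bladder (log2 fold change -4.95 ± 0.42 SE, adjusted p = 5.94e-05). CXCL14, of normal epithelia, had 75.1 and 57.4 CPM in peritoneum and 633 and 749 CPM in native bladder (log2 fold change -3.38 ± 0.62 SE, adjusted p = 0.00405). CXCL12 and the other chemokines named here thus stood on opposite sides. Of 5 tested neutrophil and mast cell markers 2 were lower in peritoneum (median log2 fold change -2.15), and their summed level was 106 and 97.3 CPM in peritoneum and 144 and 108 CPM in native bladder. Without each library in turn, 4, 4, 3 and 3 chemokines were higher and 4, 5, 5 and 5 lower.

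Interleukins and their receptors had 3 of 46 tested members higher and 13 lower in peritoneum. IL1A, an alarm signal stored in epithelium, had 0 and 0.0891 CPM in peritoneum and 55.4 and 31.5 CPM in native bladder (a ratio of 904 with a 95% counting interval of 162 to 35735, adjusted p = 5.73e-05). IL17A and IL22, made by T cells and innate lymphocytes of barriers, had 0 CPM in both peritoneum libraries and 6.3 and 5.16 CPM in native bladder (at least 40.2-fold lower in peritoneum, adjusted p = 0.00277) and 0 and 0.0891 CPM in peritoneum and 5.01 and 4.63 CPM in native bladder (a ratio of 101 with a 95% counting interval of 17.8 to 4031, adjusted p = 0.00473). Both native bladder libraries had IL17A and IL22 at low, similar levels, beside 4 of 5 T cell markers that were also higher there (summed 23.6 and 32.7 CPM in peritoneum and 101 and 88.1 CPM in native bladder). IL34, a macrophage growth factor, was higher in peritoneum at 31.4 and 33.1 CPM in peritoneum and 3.31 and 4.03 CPM in native bladder (log2 fold change 3.13 ± 0.40 SE, adjusted p = 0.000483). In fits without 1 library, 6, 8, 6 and 7 of the family were lower. Prostacyclin synthase PTGIS had 406 and 508 CPM in peritoneum and 17.6 and 17 CPM in native bladder (log2 fold change 4.72 ± 0.43 SE, adjusted p = 7.58e-05), while the inducible cyclooxygenase PTGS2 had 1.53 and 1.16 CPM in peritoneum and 36.5 and 12.6 CPM in native bladder (log2 fold change -4.19 ± 0.79 SE, adjusted p = 0.00472), and the PTGS2 span overlaps that of PLA2G4A. Of 16 tested prostaglandin genes 4 were higher and 3 lower.

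Immediate early genes are switched on within minutes of a stimulus, tissue handling included. Of 22 tested members 18 were lower in peritoneum, with a median log2 fold change of -3.27. FOS had 12.3 and 28.7 CPM in peritoneum and 2037 and 1575 CPM in native bladder (log2 fold change -6.46 ± 0.68 SE, adjusted p = 0.000185). EGR1 had 61.7 and 76.3 CPM in peritoneum and 1618 and 1035 CPM in native bladder (log2 fold change -4.26 ± 0.51 SE, adjusted p = 0.000324). JUNB had 9.78 and 4.81 CPM in peritoneum and 263 and 208 CPM in native bladder (log2 fold change -5.01 ± 0.49 SE, adjusted p = 0.00012). Both native bladder libraries lay far above both peritoneum libraries for each of these genes. The time from excision to RNA is not given in the sources used here, so tissue and handling cannot be told apart for this group. When libraries were removed singly, 13, 10, 9 and 17 members were lower.

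Genes of the cell cycle and DNA replication had 13 of 31 tested members lower in peritoneum, with a median of -1.77. The replication licensing genes MCM2 and MCM3 had 4.48 and 3.83 against 65.5 and 36.2 CPM and 11.1 and 8.2 against 86.1 and 51.3 CPM (log2 fold changes -3.61 and -2.83, adjusted p = 0.00211 and 0.0015). CCNE1, a cyclin of entry into replication, had 0.509 and 1.25 CPM in peritoneum and 7.75 and 7.84 CPM in native bladder (log2 fold change -3.12 ± 0.57 SE, adjusted p = 0.0038). All 3 were higher in both native bladder libraries, beside B and T cell markers that were higher there too, and their part was not tested. With 1 library left out, 10, 7, 4 and 7 members were lower.

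Clock genes hold a daily rhythm, and the hour at which each tissue was taken is not given in the sources used here. Of 17 tested members 4 were higher and 1 lower in peritoneum, among them BMAL1 at 40.0 and 51.1 CPM in peritoneum and 10.7 and 11.9 CPM in native bladder (log2 fold change 2.02 ± 0.43 SE, adjusted p = 0.00883) and NR1D1 at 9.07 and 14.3 CPM in peritoneum and 2.18 and 1.72 CPM in native bladder (log2 fold change 2.58 ± 0.58 SE, adjusted p = 0.0111). BMAL1 drives the clock and NR1D1 represses it, and both were higher in both peritoneum libraries. NR1D1 overlaps THRA in annotation. Without each library in turn, 2, 0, 0 and 0 members were higher. BMAL1 missed the threshold without peritoneum replicate 2, bladder replicate 1 or bladder replicate 2 (adjusted p 0.00012 to 0.0952 over the 12 alternatives). NR1D1 missed the threshold without peritoneum replicate 2, bladder replicate 1 or bladder replicate 2 (adjusted p 0.000245 to 0.101 over the 12 alternatives).

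Imprinted genes, expressed from 1 parental copy and known as regulators of growth, had 6 of 11 tested members higher and 1 lower in peritoneum. SGCE, a membrane protein of the dystrophin complex, had 148 and 178 CPM in peritoneum and 24.6 and 34.4 CPM in native bladder (log2 fold change 2.47 ± 0.38 SE, adjusted p = 0.00142). CDKN1C, a brake on the cell cycle, had 15.9 and 15.9 CPM in peritoneum and 3.39 and 1.49 CPM in native bladder (log2 fold change 2.70 ± 0.63 SE, adjusted p = 0.0129). PHLDA2, the lower member, had 1.32 and 3.39 CPM in peritoneum and 92.8 and 71.1 CPM in native bladder (log2 fold change -5.10 ± 0.78 SE, adjusted p = 0.00144). In fits without 1 library, 4, 2, 2 and 1 members were higher. Embryonic and perinatal muscle myosins were also found in peritoneum, with MYH3 at 17.7 and 24 CPM in peritoneum and 0.808 and 0.598 CPM in native bladder (log2 fold change 4.87 ± 0.72 SE, adjusted p = 0.00118) and MYH8 at 14.1 and 12.8 CPM in peritoneum and 0 and 0.0747 CPM in native bladder (a ratio of 345 with a 95% counting interval of 61.5 to 13688, adjusted p = 0.00115). Adult skeletal muscle markers summed to 3.77 and 12.8 CPM in peritoneum and 5.09 and 0.971 CPM in native bladder. Of 23 tested myosin heavy chain, troponin and tropomyosin genes 4 were higher and 3 lower. Myosin genes lie in a cluster of close copies, so the share of reads of each is uncertain. CDKN1C missed the threshold without bladder replicate 2 (adjusted p 0.000334 to 0.114 over the 12 alternatives).

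Some families had few calls or none. Of 48 tested cytosolic ribosomal protein genes 0 were called by edgeR and 0 by DESeq2, 1 had an unadjusted p under 0.05, and their median log2 fold change was 0.21, while fitting the 4 libraries alone called 4 higher and 2 lower. Of 8 tested MHC class II genes, which present antigen on immune cells, 0 were called by either tool and 0 had an unadjusted p under 0.05, with a median of 0.043. Of 70 tested nuclear genes of oxidative phosphorylation 1 was higher and 2 lower, which is below the shares of all genes, but the count depended on the fit. DESeq2 called 2 higher and 6 lower, and fitting the 4 libraries alone called 2 higher and 32 lower, where 2776 and 3027 of 15380 genes were called. For 55 of these 70 both peritoneum libraries lay below both native bladder libraries, against 35.3% of all tested genes, and the median was -0.61.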

How the data were processed

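Messenger RNA was sequenced from peritoneum and native bladder mucosa in 2 libraries each. Per the labels' protocols, libraries were made with Smart-seq2 and TruSeq and read on a HiSeq X instrument. The deposited values are whole-number counts for Ensembl genes. The submitters' processing notes name Trim Galore and HISAT2, the build Sscrofa11.1, and the counter HTSeq 0.11.1. Settings, annotation release and use of strand are not given in the sources used here, and 57 of the 196 named genes overlap another gene in the RefSeq annotation of that build, so their reads may be shared.

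Of 31907 genes 15029 matched a symbol. All 8 libraries (4 groups) entered 1 edgeR 4.0.16 quasi-likelihood fit (R 4.3.3, robust) after filterByExpr and TMM scaling, which left 16549 genes, 12436 with a symbol. The other groups add to the estimate of spread (4 residual degrees of freedom, biological coefficient of variation 0.382), and they also entered the filter and the scaling. Replicates differed beyond sampling noise (chi-square per degree of freedom 24.9 in peritoneum and 32.9 in native bladder). Calls are a Benjamini-Hochberg adjusted p under 0.05 over all tested genes. Each SE is the size of the log2 fold change divided by the square root of the test's F statistic, and is approximate. A gene at 0 in both libraries of a tissue has a fold bound against 3 counts over that tissue, 0.143 CPM in peritoneum and 0.116 in native bladder. With 1 to 3 counts a ratio has an exact 95% interval. Bounds and intervals cover counting error only.

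The comparison, the 78 families and the 17 marker lists were chosen with earlier results of these data known, and 3 lists (apolipoproteins, integrins, interleukins) were later corrected by name for genes that are no members. Named genes were the 15 largest differences in each direction (mean of 5 CPM or more, no overlap), the 4 smallest p per direction or the most abundant member of a list, or markers, and not every eligible gene is described. HOXA7, HOXA9, HOXA11, HOXB6, HOXB7, HOXB8, HOXC6 and KRT8 lie outside this rule and were chosen after their values were seen. On simulated data with 200 changed genes, the test called 40 of 100 genes changed 4-fold and 91 of 100 changed 8-fold, and 6 unchanged genes, of 16549. As alternatives, the test was repeated with DESeq2 1.42.0, with DESeq2 size factors, with unscaled library totals, as a test against a 1.5-fold change, with no low-count filter, with a mean of at least 1 CPM, on the 4 libraries alone, with the replicate number as a block, and with each library left out in turn.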

Additional observations from a re-analysis of the deposited data

How the results depend on the processing

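Over 12 alternatives the called genes kept within 1.5 times of 3486 (1644 higher and 1842 lower in peritoneum) under DESeq2 (4440, with 2204 and 2236), DESeq2 size factors (3557), library totals alone (2472), the test against a 1.5-fold change (2690), no filter (4176) and a mean of at least 1 CPM (3507). With the replicate number as a block 3163 genes were called, 1436 higher and 1727 lower. The labels do not say that replicate numbers pair the tissues, and same-numbered libraries did not deviate together (r = -0.009 across genes). Fitting the 4 libraries alone gave 5803 calls, 2776 higher and 3027 lower, of 15380 tested. Leaving out 1 library gave 1297 to 2014 calls, 406 to 911 higher and 891 to 1103 lower, where the lone library of its tissue was assumed to vary like the other groups. The share of calls that were higher was 47.2% and fell to 31.3% and 34.4% without native bladder replicate 1 and 2, and the cause was not tested. Of 2348 repeat tests of the 196 named genes 2261 stayed on their side of the threshold in the same direction, 67 lost a call and 19 gained one. KRT8 turned from -0.27 to 0.23 without peritoneum replicate 1 and was -1.08 without replicate 2, never past the threshold. The simulated test found 40% of 4-fold differences, but the simulation changed far fewer genes than the 3486 called here. The adjusted p depends on how many genes differ, so the 40% cannot be taken as the power of this comparison. With 2 libraries a tissue, differences may go uncalled, and genes at 0 are bounded only by depth.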
